A study of Mus musculus with 9 samples.

Results

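Of the annotated RNAs that overlap or belong to ribosomal RNA, 4 genes, Gm42418, AY036118, CT010467.1 and n-R5-8s1, were followed through the RNA sequencing of dorsal root ganglia from E18.5 mouse embryos. These 4 genes are among the 55247 genes of the count table, and 3 of the 4 had a count in any library. They were chosen by their names in the table, with their counts in the mutant known, and Gm42418 was selected on its higher counts in the mutant. The values of the members in the comparisons of the mutant are therefore given as a description, without a test. Each of 3 genotypes had 3 libraries. WT embryos had no engineered allele, and Isl1Cre/+ embryos were heterozygous for Cre recombinase inserted at Isl1. The mutant, Isl1Cre/+::Meis2LoxP/LoxP, carried the same Cre allele together with a Meis2 exon flanked by LoxP sites on both alleles. Because Cre follows Isl1, a transcription factor of postmitotic sensory neurons, Meis2 is expected to be lost from these neurons and to remain in the other cells of the ganglion. In bulk RNA, fewer cells of a type and less RNA per cell cannot be told apart.

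The ribosome carries its catalytic core in ribosomal RNA. RNA polymerase I transcribes the nuclear rRNA genes as a long precursor, from which external and internal spacers are cut away to leave 18S, 5.8S and 28S rRNA. The 18S rRNA forms the small subunit, and the 5.8S rRNA pairs with 28S rRNA in the large subunit. Mature nuclear rRNAs lack a poly(A) tail, and rRNA makes up most of the RNA of a cell, so libraries made from poly(A) RNA hold what is left of it after selection.

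Of the members, 3 lie on top of each other on chromosome 17 (GENCODE M21, on the mm10 assembly GRCm38). CT010467.1 (ENSMUSG00000106106.2) is annotated as rRNA on the minus strand at chr17:39846353-39848827 and has 2 transcripts, one of 1849 bases with the type rRNA and one of 714 bases with the type pseudogene. Gm42418 (ENSMUSG00000098178.1) is annotated as a long intergenic noncoding RNA of 1831 bases in a single exon on the plus strand at chr17:39846958-39848788. Of its bases, 1822 (99.5%) lie opposite exons of CT010467.1. AY036118 (ENSMUSG00000105361.1), annotated as a long intergenic noncoding RNA of 923 bases at chr17:39847113-39848035, lies on the minus strand and all 923 of its bases are inside exons of CT010467.1 on the same strand. The fourth member, n-R5-8s1 (ENSMUSG00000065922.1), is a 5.8S rRNA gene of 148 bases on the minus strand of chromosome 18, from 73533403 to 73533550. The plus-strand neighbour Gm26917, a long intergenic noncoding RNA that is no member, ends 11 bases before CT010467.1.

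**Figure D1:**
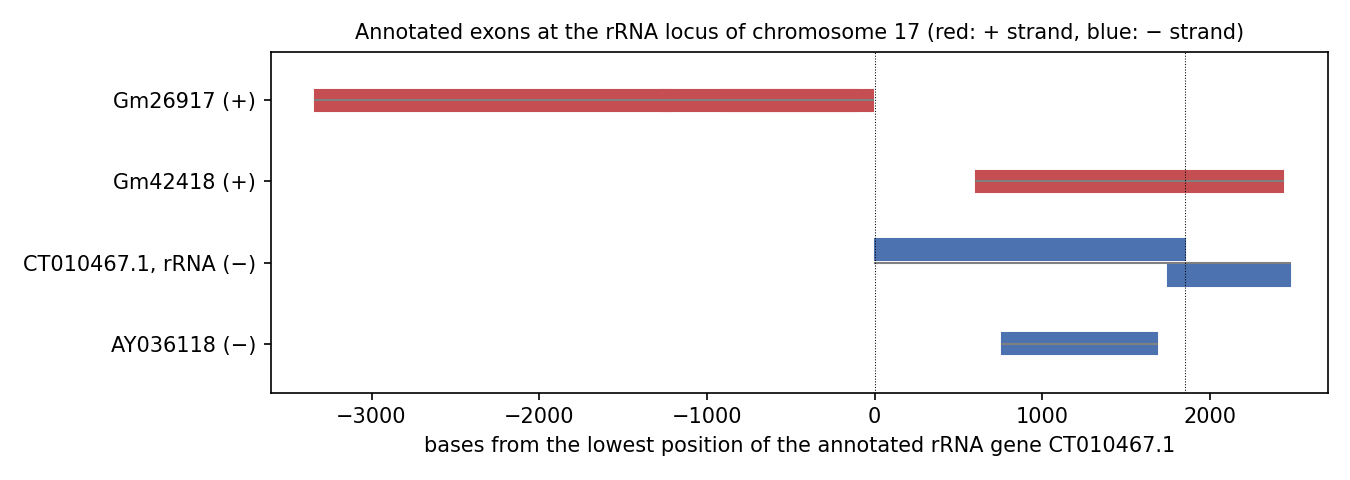
Annotated exons of the members on chromosome 17 and of the neighbour Gm26917, with the position in bases from the lowest position of the rRNA gene CT010467.1 on the x axis, plus-strand genes in red and minus-strand genes in blue. The dotted lines mark the 1849 bases of the rRNA transcript, of which Gm42418 covers 1244 on the other strand before running 587 bases beyond it.

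Stretches of the transcripts are shown because they tell which strand of this locus reads as 18S rRNA. The first holds, in capitals, a match to a universal forward primer for small-subunit rRNA, a sequence conserved in small-subunit rRNA. The second and the third hold, in capitals, the 9 bases GGATCATTA with which 18S rRNA ends, or their reverse complement. Sequences are written 5′ to 3′ on the strand of each transcript, from the GENCODE M21 transcripts.
Gm42418, bases 1 to 100 of the transcript, chr17:39846958-39847057, plus strand: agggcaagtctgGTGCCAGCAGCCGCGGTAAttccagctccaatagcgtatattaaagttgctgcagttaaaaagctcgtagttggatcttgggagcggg
Gm42418, bases 1145 to 1294, chr17:39848102-39848251, plus strand: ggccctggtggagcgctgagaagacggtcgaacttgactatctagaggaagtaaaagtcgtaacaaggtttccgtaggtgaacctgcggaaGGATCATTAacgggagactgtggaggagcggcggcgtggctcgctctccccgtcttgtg
CT010467.1, bases 1 to 100 of the 1849-base transcript, chr17:39848102-39848201, minus strand: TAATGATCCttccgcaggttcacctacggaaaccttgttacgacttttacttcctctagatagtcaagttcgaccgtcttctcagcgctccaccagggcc

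The plus strand, on which Gm42418 is annotated, read as 18S rRNA at each of the 3 sequences searched. The forward primer sequence was found at bases 13 to 31 of Gm42418, the target of a universal reverse primer for small-subunit rRNA, with the letters TGTACACACCGCCCGTC, at bases 1094 to 1110 and GGATCATTA at bases 1236 to 1244. In the 1849-base transcript of CT010467.1 the same 3 sequences were found only in the reverse complement, with GGATCATTA as its last 9 bases and no base after it. The printed stretch of CT010467.1 is over all 100 bases the reverse complement of the first 100 printed bases of the second Gm42418 stretch. Among 141767 annotated transcripts, 1 held the forward primer sequence in its own sense, Gm42418, and 1 in its reverse complement, CT010467.1, and the same was found for the reverse primer. The shorter GGATCATTA is less particular, with a match in 37 of 13432 transcripts (0.275%) within 300 bases of the length of Gm42418, and a reverse complement match in 50 (0.372%). None of the 3 sequences was found in AY036118 or n-R5-8s1 on either strand. The pseudogene transcript of CT010467.1 held the reverse complement of GGATCATTA, with 617 bases following the match in that orientation. Gm42418 thus covers 1244 of the 1849 bases (67.3%), starting 605 bases into them, and continues for 587 bases past the 18S end. The RefSeq table for GRCm38.p6 has an entry of 1849 bases here, Rn18s-rs5, with Gm42418 among its synonyms. It places AY036118 elsewhere than GENCODE does, at chr17:39848112-39898385, so the overlaps given here hold for the GENCODE position.

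Shared sequence set what could be counted for each member. The reads were sequenced to 84 bases, and how many remained after removal of the molecular identifier is not given in the sources used here. Of the 1748 windows of 84 bases in Gm42418, none occurred in another annotated gene on the same strand, and 1608 (92%) occurred in reverse complement in CT010467.1 or AY036118. With windows of 50 bases, none and 94.9% did. All 840 windows of AY036118 occurred in CT010467.1 on the same strand. HTSeq-count, with which the authors counted reads, assigns in its default mode a read that covers exons of 2 genes to neither, so no read inside AY036118 can be assigned to it. The same holds for CT010467.1 over these 923 bases, which leaves 1543 of its 2466 exonic bases (62.6%) open to counting. None of the 65 windows of n-R5-8s1 occurred in another annotated gene on either strand. Copies of rRNA genes outside the annotated transcripts were not searched. The strand setting of the counting is not given in the sources used here, and without strand the reads over the 1822 bases would also have been assigned to neither gene. Only 9 bases of Gm42418 lie outside these 1822, and it had 16782 to 46154 counts in a library. Protein-coding genes took 98.3% to 98.6% of the counts in every library. The longest run of A in Gm42418 was 6 bases, against a median of 5 in the 13432 transcripts of similar length, of which 27.5% had a longer run. G and C made up 60.2% of its bases and 52.0% of those of n-R5-8s1.

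The libraries held 23854607 to 29103444 counts after removal of duplicates by molecular identifiers. Meis2, the targeted gene, stood at 95.4 to 110 counts per 1000000 counts (CPM) in WT, 89.5 to 102 in Isl1Cre/+ and 40.8 to 41.2 in the mutant, after normalization by trimmed mean of M values (TMM), so the genotype labels fit its counts. Isl1, the gene that carries the Cre insertion, was at 261.6 ± 30.4 CPM in WT, 185.9 ± 19.1 in Isl1Cre/+ and 187.6 ± 24.7 in the mutant (SD, n = 3). All 8 measured sensory neuron markers were present, with 4898 to 6668 CPM together. Sums over gene lists are given as CPM of the library before TMM scaling, as are the levels of untested small RNAs. For pairs of libraries of a genotype, the chi-square of the count differences, averaged over the tested genes, was 12.6 to 129. Counting error alone would give about 1. Abundant genes weigh most in this average, and it was taken without TMM scaling, so it is not the spread of a typical gene. Comparisons were made with edgeR's quasi-likelihood test on the 13200 genes that reached 100 counts in any library, which included Gm42418 and n-R5-8s1. The criterion of the study, a fold change of at least 1.2 with an unadjusted p under 0.05, was met by 0.318% of the tested genes between mutant and WT, 1.67% between mutant and Isl1Cre/+ and 1.4% between Isl1Cre/+ and WT. An adjusted p under 0.05 was reached in edgeR by 0.00758% in each comparison of the mutant, a single gene that was Meis2, and by 0% between Isl1Cre/+ and WT, where 236 genes had an unadjusted p under 0.05. With DESeq2 it was reached by 1 gene between mutant and WT, 10 between mutant and Isl1Cre/+ and 1 between Isl1Cre/+ and WT, and with limma voom by 1, 1 and 0.

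Gm42418 was the abundant member and had more counts in every mutant library than in any control library. It had 35951, 16782 and 23798 counts in the 3 WT libraries, 31868, 31155 and 27594 in the Isl1Cre/+ libraries and 43384, 46154 and 37708 in the mutant libraries. As CPM of the library before TMM scaling, this was 1235, 603.3 and 846.1 for WT, 1103, 1117 and 983.8 for Isl1Cre/+ and 1562, 1753 and 1581 for the mutant. The groups of mutant and control libraries did not overlap, while the WT libraries spread widely around the narrow range of Isl1Cre/+. Binomial 95% intervals (Wilson) of these shares, which cover counting error only, were narrow, from 1737 to 1769 for mutant replicate 2 as an example. Among all genes of a library, Gm42418 ranked between 24 and 32 by count in the mutant and between 51 and 162 in the controls. Every mutant library lay above every control library for 37 of the 13200 tested genes (0.28%), and Gm42418 was selected as such a gene.

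After TMM normalization, Gm42418 stood at 924.7 ± 389 CPM in WT, 1057 ± 74 in Isl1Cre/+ and 1644 ± 104 in the mutant (SD, n = 3). The highest control value, 1353 in WT replicate 1, lay below the lowest mutant value, 1548 in replicate 3. The log2 fold change of mutant against WT was 0.83 ± 0.27 (SE), a fold of 1.78, and that of mutant against Isl1Cre/+ was 0.64 ± 0.09, a fold of 1.55. Both comparisons share the mutant libraries and each of the control groups also enters the comparison of the controls. With single libraries left out, the first value ranged from 0.59 without WT replicate 2 to 1.21 without WT replicate 1, and the second from 0.58 to 0.68. Between the control genotypes, where the choice of members used no values, the log2 fold change was 0.21 ± 0.26 with an adjusted p of 1 in edgeR's quasi-likelihood test, and it turned to -0.02 without WT replicate 2. The spread among WT libraries, 2.28-fold from lowest to highest, was larger than this difference. In the Isl1Cre/+ and mutant groups the highest library exceeded the lowest by 1.14-fold and 1.13-fold.

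**Figure D2:**
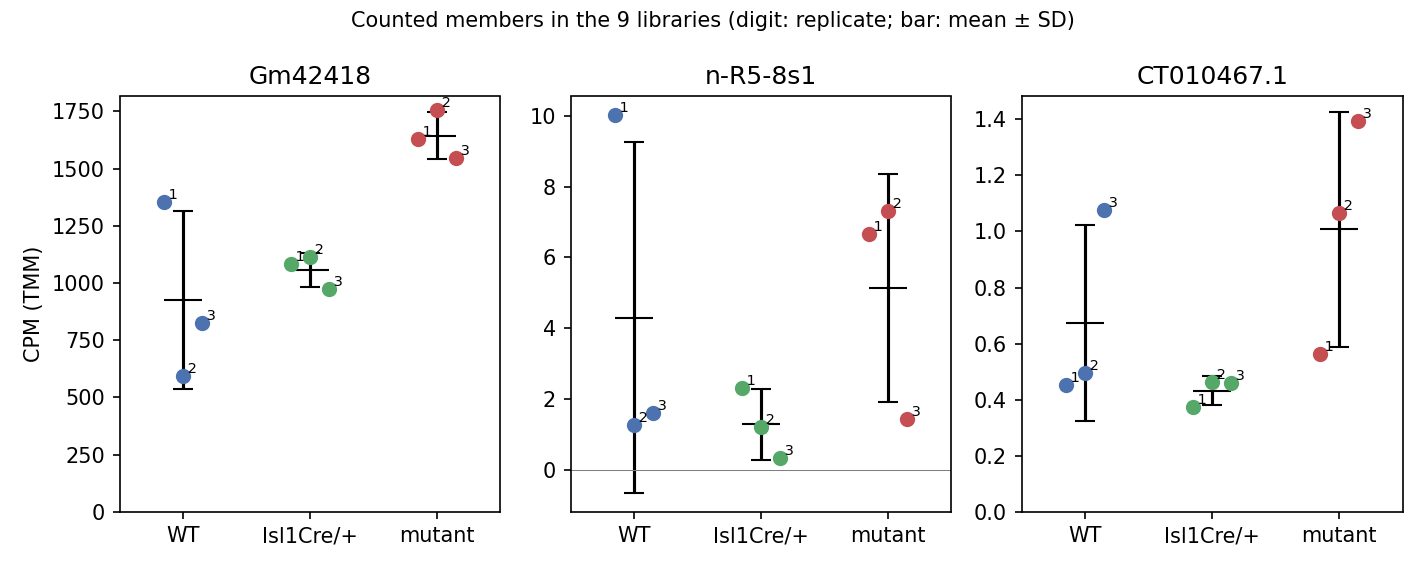
Normalized level (CPM, TMM) of the 3 members with counts in each of the 9 libraries by genotype, with the replicate number beside each point and the mean ± SD as black bars. The mutant libraries of Gm42418 sit between 1548 and 1754 and all other libraries between 594 and 1353, while for n-R5-8s1 and CT010467.1 the mutant and WT points overlap.

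n-R5-8s1, the 5.8S rRNA gene, varied widely between the libraries of each genotype. It had 266, 36 and 46 counts for WT, 68, 34 and 9 for Isl1Cre/+ and 177, 192 and 35 in the mutant. WT replicate 1 and mutant replicates 1 and 2 were high, and mutant replicate 3 fell among the other controls, so mutant and control libraries overlapped. The normalized level was 4.295 ± 4.95 CPM in WT, 1.283 ± 1 in Isl1Cre/+ and 5.129 ± 3.21 in the mutant (SD, n = 3). Its log2 fold change was 0.27 ± 0.86 (SE) for mutant against WT and 1.99 ± 0.74 for mutant against Isl1Cre/+. The first of these reached 1.84 without WT replicate 1 and fell to -0.17 without WT replicate 2, so its direction was set by single libraries. The second kept its sign, at 1.54 to 2.74 with a library left out. In the comparison of the controls, the value was -1.70 ± 0.92 with an adjusted p of 1 in edgeR's quasi-likelihood test, and it shrank to -0.17 without WT replicate 1. Neither member met the criterion of the study between Isl1Cre/+ and WT, where 1.4% of all tested genes did.

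Counts on the strand of the annotated rRNA gene were few. CT010467.1 had 12, 14 and 31 counts for WT, 11, 13 and 13 for Isl1Cre/+ and 15, 28 and 34 in the mutant, too few to be tested. The mutant libraries all lay above the Isl1Cre/+ libraries but overlapped WT, where replicate 3 was high. Their counting intervals were wide, from 0.3272 to 0.8908 CPM in mutant replicate 1 and from 1.02 to 1.992 in replicate 3. Per kilobase open to counting, Gm42418 exceeded CT010467.1 by 647-fold to 2525-fold in the 9 libraries. The highest ratios, 2437 to 2525, were found in WT replicate 1, Isl1Cre/+ replicate 1 and mutant replicate 1, and the lowest in WT replicate 3 (647) and mutant replicate 3 (935). AY036118 was listed at 0 in all 9 libraries. A count of 0 allows up to 0.103 to 0.126 CPM (3 counts of the library), a limit that does not bear on its RNA because reads inside it could not be assigned to it. Together the members took 0.0605% to 0.1245% of a WT library, 0.09845% to 0.1118% of an Isl1Cre/+ library and 0.1568% to 0.1761% of a mutant library, of which Gm42418 made up 99.23% to 99.92%.

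Other annotated nuclear rRNA had few counts. Only reads that mapped to a single place in the genome were counted, so reads that fit several copies of an rRNA gene were left out, and low counts do not give the level of these RNAs. Of 356 genes of the types rRNA and mitochondrial rRNA, 39 had a count in any library, and 3 were tested, n-R5-8s1 and the mitochondrial mt-Rnr1 and mt-Rnr2. Outside the members, no gene of the type rRNA had more than 8 counts in a library, and of 180 genes for 5S rRNA 17 had a count, at most 4. Gm26917, on the same strand as Gm42418 and upstream of it, stood at 31.63 ± 1.48 CPM in WT, 30.33 ± 8 in Isl1Cre/+ and 35.5 ± 5.48 in the mutant (SD, n = 3), and its groups overlapped. Its log2 fold change was 0.17 ± 0.13 (adjusted p = 1) for mutant against WT and 0.23 ± 0.21 (adjusted p = 1) for mutant against Isl1Cre/+. Among 8 tested protein-coding genes whose exons overlap a 5S or other rRNA gene by 47 to 119 bases, such as Antxr1, Emc7 and Lbr, 0 met the criterion in any comparison, which for so few genes is near the shares of all tested genes (0.318%, 1.67% and 1.4%) and says nothing particular about them.

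Other stable RNAs without a poly(A) tail were measured next to the members because, like mature nuclear rRNAs, they lack the tail that was selected for. Whether the RNA counted for a member carried a tail was not tested. The 1383 small nuclear RNA genes summed to 5.054 to 6.506 CPM and the 1507 small nucleolar RNA genes to 7.38 to 9.416. Before TMM scaling, the mutant libraries lay within the WT range in both. With the TMM factors applied, mutant replicate 1 lies above the WT range for the small nuclear RNAs. For the small nuclear RNAs, the mutant sums (6.12 to 6.335) lay above those of Isl1Cre/+ (5.054 to 5.914). The 51 genes for small RNAs of the Cajal body summed to 0.5735 to 1.993. Rn7sk, the RNA that holds the elongation factor P-TEFb inactive, had 0.1797 to 0.5318 CPM. Rpph1 and Terc, the RNA subunits of RNase P and telomerase, were listed at 0 in all 9 libraries, which allows up to 0.103 to 0.126 CPM for counting error. Rmrp, the RNA subunit of RNase MRP, and Rn7s1 and Rn7s2 of the signal recognition particle were also listed at 0, but Rmrp is annotated as 2 genes of the same strand, one inside the other, and Rn7s1 and Rn7s2 are copies of one RNA, so these zeros set no level. Of 67 replication-dependent histone genes, whose mRNAs end in a stem-loop, 6 were tested and 0 met the criterion in any comparison, while 1 met it between mutant and Isl1Cre/+ with DESeq2 and without Isl1Cre/+ replicate 1 or mutant replicate 3, and 1 between the controls without WT replicate 1.

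Mitochondrial RNAs were high in the libraries in which n-R5-8s1 was high. mt-Rnr1, the rRNA of the small mitochondrial subunit, stood at 913.5, 423.9 and 384.7 CPM for WT, 375, 348.2 and 478 for Isl1Cre/+ and 734.7, 784.3 and 420.8 in the mutant. Before TMM scaling, the 13 mitochondrial mRNAs together made up 83935, 37236 and 29830 CPM for WT, 29488, 31678 and 38642 for Isl1Cre/+ and 70099, 51892 and 32207 in the mutant. WT replicate 1 and mutant replicates 1 and 2 were the high libraries for both, and mutant replicate 3 lay within the range of the controls. Both mitochondrial rRNAs met the criterion between mutant and Isl1Cre/+, where 1.41% of all tested genes met it with a higher level in the mutant, with log2 fold changes of 0.69 ± 0.24 for mt-Rnr1 and 0.65 ± 0.26 for mt-Rnr2 (SE). Of 8 mitochondrial mRNAs tested, 5 met it in the same direction and the median log2 fold change was 0.65, against 0.00 over all genes tested. These counts rested on single libraries and on the fit. The 5 mRNAs became 3 with DESeq2, and 1 with limma voom, with all genotypes in 1 fit, with the replicate block and without mutant replicate 1 or any single Isl1Cre/+ library, and 8 without mutant replicate 3. The 2 rRNAs became 1 with DESeq2 or with all genotypes in 1 fit, and 0 with the replicate block and without Isl1Cre/+ replicate 1 or 2 or mutant replicate 1 or 2. Between the controls mt-Nd6 alone met it, at -0.62 ± 0.20 for Isl1Cre/+ against WT, and 7 of the mRNAs did without WT replicate 3. Between mutant and WT, 0 of the 8 mRNAs and 0 of the 2 rRNAs met it. Malat1, an abundant nuclear long noncoding RNA, was the 1 of 8 listed nuclear long noncoding RNAs to meet it between mutant and Isl1Cre/+, at 0.56 ± 0.24, while Neat1 and Mirg met it between the controls with lower levels in Isl1Cre/+ (-0.45 ± 0.17 and -0.54 ± 0.23). With a library left out, the number meeting it between the controls ran from 0, without WT replicate 2 or Isl1Cre/+ replicate 3, to 4, without WT replicate 1 or 3, while between mutant and Isl1Cre/+ it was 0 with DESeq2, limma voom or all genotypes in 1 fit and without Isl1Cre/+ replicate 1 or mutant replicate 2, so that the call of Malat1 was lost, and 2 without mutant replicate 3 and with the replicate block. Neither a mitochondrial RNA nor Malat1 had an adjusted p under 0.05 in these comparisons. Whether these libraries differ in RNA quality or handling was not tested. Fitted with the summed mitochondrial mRNA level as a covariate, a choice made after seeing the data, the log2 fold change of Gm42418 was 0.84 ± 0.21 for mutant against WT and 0.62 ± 0.12 for mutant against Isl1Cre/+, and that of n-R5-8s1 was 0.42 ± 0.37 and 1.04 ± 1.16. Between Isl1Cre/+ and WT the covariate moved Gm42418 from 0.21 to 0.50 ± 0.20 and n-R5-8s1 from -1.70 to -0.31 ± 0.83.

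Red cell and skeletal muscle markers also differed between libraries. The 7 red cell markers summed to 910.4 to 1949 CPM in WT, 346.9 to 983.7 in Isl1Cre/+ and 1159 to 3964 in the mutant, and the 6 muscle markers to 104.9 to 820.7, 57.97 to 141.4 and 113.2 to 1912. Mutant replicate 2 was highest for both sums. All 6 tested red cell markers and all 6 muscle markers met the criterion between mutant and Isl1Cre/+ with a higher level in the mutant, as did 1.41% of all tested genes. Between mutant and WT, 0 of the red cell and 0 of the muscle markers met it, with 3 red cell markers without mutant replicate 1. These markers were all lower in Isl1Cre/+ than in WT by that criterion, where 1.14% of all tested genes were lower. This call rested on single libraries. Of the 6 red cell markers, 0 met it without Isl1Cre/+ replicate 1 and 2 without Isl1Cre/+ replicate 3 or WT replicate 1, and of the 6 muscle markers, 2 met it without Isl1Cre/+ replicate 3 and 3 without Isl1Cre/+ replicate 1 or WT replicate 3. Between mutant and Isl1Cre/+, the number of muscle markers fell to 3 without Isl1Cre/+ replicate 3 or with limma voom. It was 4 with the replicate block and without Isl1Cre/+ replicate 2 or mutant replicate 2. The number of red cell markers stayed at 6 with each library left out. Their part in the level of the members was not tested. Without mutant replicate 2, the log2 fold change of Gm42418 was 0.81 ± 0.30 for mutant against WT and 0.59 ± 0.08 for mutant against Isl1Cre/+ (SE). Markers of spinal cord (15.38 to 27.21 CPM) and sympathetic neurons (13.78 to 26.53) were low in all libraries. Of the sympathetic markers, Th met the criterion between mutant and WT at -0.31 ± 0.10, a call lost without WT replicate 2. Dbh, with 10, 138 and 42 counts for WT, 0, 10 and 0 for Isl1Cre/+ and 10, 13 and 48 in the mutant, met it between mutant and Isl1Cre/+ and, with lower counts in Isl1Cre/+, between the controls. Its call between mutant and Isl1Cre/+ was lost with all genotypes in 1 fit, with the replicate block and without Isl1Cre/+ replicate 1 or 3 or mutant replicate 3, and Dbh was not tested where 100 counts were required in every library. Macrophage markers summed to 56.36 to 144, endothelial markers to 203.3 to 388.8, fibroblast markers to 2456 to 4904, markers of Schwann and satellite glia to 910.3 to 1101 and markers of dividing cells to 206.4 to 338.7, and in each the mutant range overlapped both control ranges. No macrophage marker met the criterion in a comparison of the mutant. Without mutant replicate 1, 5 met it between mutant and Isl1Cre/+ and 2 between mutant and WT. The endothelial sums of Isl1Cre/+ (285.4 to 388.8) lay above those of WT (235.7 to 276), and 2 of the 5 endothelial markers, Kdr and Pecam1, met the criterion there at 0.52 ± 0.20 and 0.35 ± 0.14 (SE), a number that was 0 without Isl1Cre/+ replicate 1 or 3. Kdr was also lower in the mutant than in Isl1Cre/+ by the criterion, at -0.37 ± 0.15, a call lost with all genotypes in 1 fit, with the replicate block and without Isl1Cre/+ replicate 1 or 3 or mutant replicate 1.

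**Figure D3:**
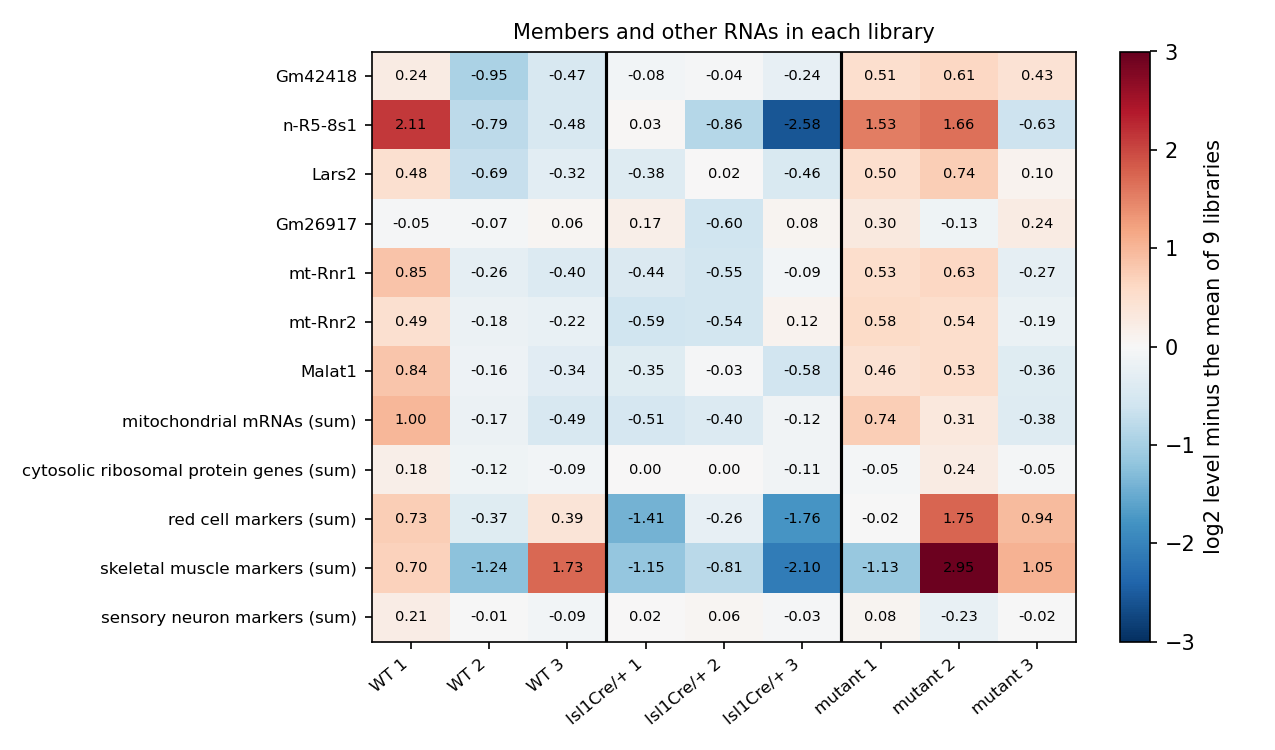
Log2 level of the tested members, other RNAs and summed marker lists in each library, minus the mean of the 9 libraries (genes in TMM CPM, sums in library CPM), with red for values above and blue for values below that mean and the number in each cell. Gm42418 is above its mean in the mutant replicates (0.43 to 0.61) and in WT replicate 1 (0.24), while n-R5-8s1 and the mitochondrial RNAs have their 3 highest values in WT replicate 1 and mutant replicates 1 and 2.

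The genes that make and process rRNA are given by their counts beside the shares of all tested genes that met the criterion, which were 0.318% between mutant and WT, 1.67% between mutant and Isl1Cre/+ and 1.4% between the controls. In lists of this length, counts of 0 or 1 are near these shares and say nothing particular about the lists. Of 21 genes for transcription by RNA polymerase I, among them Ubtf, which binds the rDNA, and Rrn3, which recruits the polymerase, 0 met the criterion in any of the 3 comparisons. The median log2 fold change of these genes was -0.07 for mutant against WT, against -0.01 over all genes tested, and 0.02 for mutant against Isl1Cre/+, against 0.00. Ubtf itself had log2 fold changes of -0.13 ± 0.18 and -0.04 ± 0.06, and Rrn3 of 0.08 ± 0.13 and -0.03 ± 0.07 (SE). Of 66 genes for pre-rRNA processing, 0 met the criterion in the comparisons of the mutant, with medians of -0.05 and -0.02. Before TMM scaling, their summed level was 3139 to 3227 CPM in the mutant, just below the ranges of WT (3243 to 3428) and Isl1Cre/+ (3260 to 3368). The TMM factors of the libraries ran from 0.9175 to 1.029. With these applied, the mutant range overlaps both control ranges, so the separation depends on the scaling. Their most abundant members, Ncl and Npm1, which encode the nucleolar proteins nucleolin and nucleophosmin, had log2 fold changes of -0.16 ± 0.13 and -0.04 ± 0.12 for mutant against WT. From this list, Rrs1, a ribosome assembly factor, met it between Isl1Cre/+ and WT at -0.34 ± 0.11, a call lost without WT replicate 1. Of 18 genes of the nuclear exosome and its partners, which trim and degrade rRNA precursors, 0 met it in either comparison of the mutant, and Exosc3 alone met it in the controls, lower in Isl1Cre/+ than in WT, at -0.36 ± 0.14, a call lost when scaled by library size only and without WT replicate 3 or any single Isl1Cre/+ library. Cytosolic ribosomal protein genes, the protein partners of these RNAs, had 73 tested members, of which 0 met the criterion between mutant and WT and 2, Rpl35 and Rps21, between mutant and Isl1Cre/+ at 0.32 ± 0.13 and 0.33 ± 0.09. The count between mutant and WT rose to 5 without WT replicate 1 and to 2 without mutant replicate 3, and that between mutant and Isl1Cre/+ rose to 10 without mutant replicate 3 and fell to 1 without any single one of the other libraries except Isl1Cre/+ replicate 3. The median over the 73 genes was 0.05 and 0.11 in these comparisons, against -0.01 and 0.00 over all genes tested. Of the 73, 51 and 72 had a higher level in the mutant, against 6100 and 6621 of all 13200 genes. Scaled by library size only, 69 were higher in the mutant than in Isl1Cre/+. Between the controls, 17 were higher in Isl1Cre/+ than in WT. These counts are a description without a test. No gene of these lists had an adjusted p under 0.05.

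**Figure D4:**
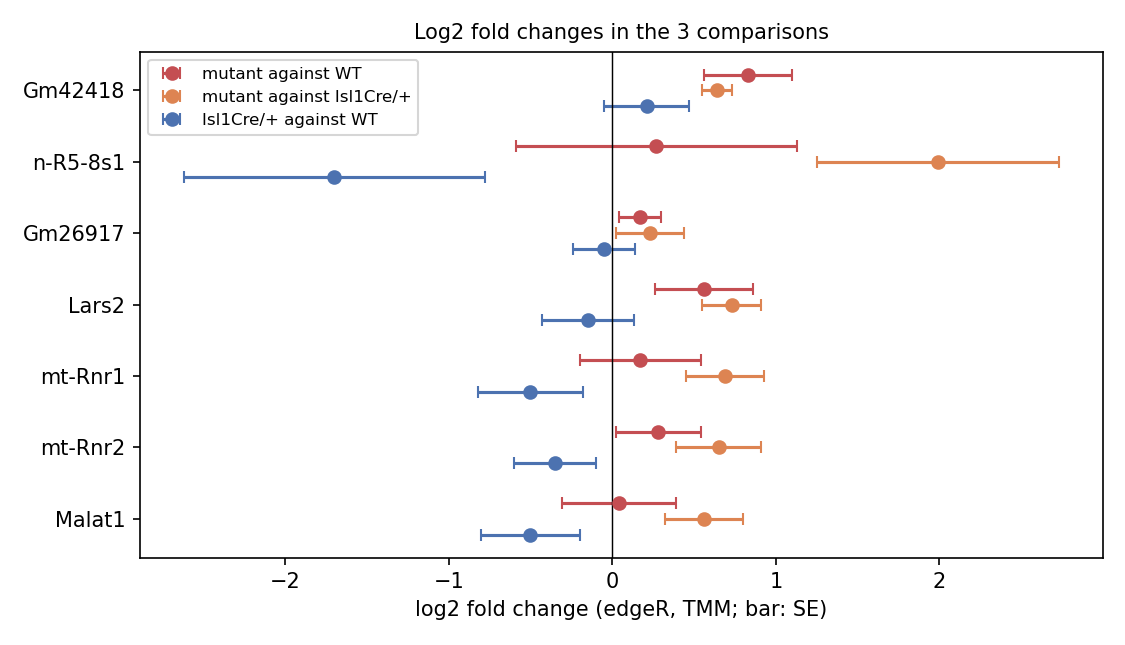
Log2 fold changes (edgeR, TMM) with standard errors as bars for the tested members, the neighbour Gm26917, Lars2, the mitochondrial rRNAs and Malat1 in the 3 comparisons, each in a colour of its own. Gm42418 lies at 0.83 and 0.64 in the comparisons of the mutant and at 0.21 between the controls, while n-R5-8s1 has the widest bars.

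Over the 9 libraries, the genes whose log2 level was most like that of Gm42418 were Plcd1 (Pearson r = 0.924), Steap3 (0.921), Dusp7 (0.917), Tomm7 (0.909) and Lars2 (0.897). These were the highest among 13200 genes and are a description, since all genes were measured in the same libraries, which differ by genotype. Plcd1 ranged from 11.72 to 18.47 CPM, Steap3 from 23.5 to 28.96, Dusp7 from 20.95 to 25.32 and Tomm7 from 47.36 to 56.67. Lars2, which encodes the mitochondrial leucyl-tRNA synthetase, had a wider range, at 179.6, 79.32 and 102.9 CPM for WT, 98.66, 130.1 and 93.5 for Isl1Cre/+ and 182.1, 214.7 and 137.6 in the mutant. WT replicate 1 lay within the mutant range for Lars2, so the groups overlapped. Its log2 fold change was 0.56 ± 0.30 for mutant against WT and 0.73 ± 0.18 for mutant against Isl1Cre/+ (SE), both with an adjusted p of 1 in edgeR. The second met the criterion of the study, as did 1.67% of all tested genes, but Lars2 was picked for its likeness to Gm42418, which was itself selected on its level in the mutant. No stretch of 25 bases in Gm42418 occurred in an annotated transcript of Lars2 or of any gene other than CT010467.1 and AY036118. Most like n-R5-8s1 were Nmnat1 (r = 0.948), Sdf2 (0.946), Twnk (0.940), Nsmce4a (0.934) and Atp5h (0.931), of which Twnk encodes the mitochondrial DNA helicase and Atp5h a subunit of the mitochondrial ATP synthase. Between Gm42418 and n-R5-8s1 themselves r was 0.60, and with Malat1 it was 0.54 for Gm42418 and 0.91 for n-R5-8s1.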

How the data were processed

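RNA was sequenced from dorsal root ganglia in 9 libraries of 3 genotypes, grouped by their labels. The authors selected poly(A) RNA, made libraries with molecular identifiers, aligned single-end reads of 84 bases to mm10 with STAR 2.7.10, removed duplicates with UMI-tools, kept reads with a single mapping position and deposited counts per gene from HTSeq-count 0.6. The annotation release and strand option are not given in the sources used here. The deposited log2 fold changes and mean log2 expression, p-values and scores of the authors' limma comparisons (18 columns) were not used.

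Gene identifiers were matched to GENCODE M21 on GRCm38 (mm10), 55154 of them, for positions, exons and sequences, and RefSeq served for names. Counts of the 13200 genes that reached 100 in any library were TMM normalized and fitted per pair of genotypes with edgeR 4.0.16 in R 4.3.3 (two-sided quasi-likelihood test, Benjamini-Hochberg adjustment over all genes tested). DESeq2 1.42.0 and limma 3.58.1 were alternatives. The fit was also run on counts simulated with known fold changes. These were drawn for each gene separately, without shifts shared by many genes of a library, and no result given here rests on them. Likeness is the Pearson correlation of log2 CPM (prior count 2). The study describes its replicates in general as biological, and the labels tie no library to an animal, so p-values measure the spread between these libraries.

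Genes named are the members, the neighbour Gm26917, rRNA genes and genes overlapping them, and listed stable RNAs without a poly(A) tail. Others are genes of the lists that met the criterion or were most abundant, the 5 genes most like each tested member, Meis2 and Isl1. For histone genes and many marker genes, sums or counts stand for the genes. The members and lists were chosen with earlier results of these data known.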

Additional observations from a re-analysis of the deposited data

How the results depend on the processing

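The sign of the log2 fold change of Gm42418 in both comparisons of the mutant was the same in each alternative, with 0.83 to 0.91 against WT and 0.61 to 0.65 against Isl1Cre/+ under other scalings, filters, tools and fits, and 0.59 to 1.21 and 0.58 to 0.68 with a library left out. Between Isl1Cre/+ and WT, it ranged from -0.02 to 0.56 with a library left out and was 0.50 with the summed mitochondrial mRNA as a covariate. For n-R5-8s1 with a library left out, the values were -0.17 to 1.84 for mutant against WT, with negative values of -0.17, -0.13 and -0.03 without WT replicate 2, WT replicate 3 and mutant replicate 2, and 1.54 to 2.74 against Isl1Cre/+, and -2.45 to -0.17 between Isl1Cre/+ and WT. n-R5-8s1 has no value where at least 100 counts were required in every library. Without a filter, CT010467.1 had log2 fold changes of 0.58 ± 0.40, 1.19 ± 0.35 and -0.63 ± 0.39 (SE) for mutant against WT, mutant against Isl1Cre/+ and Isl1Cre/+ against WT. Fitted with the summed mitochondrial mRNA as a covariate, a choice made after seeing the data, the value of n-R5-8s1 was 1.04 for mutant against Isl1Cre/+ and -0.31 for Isl1Cre/+ against WT. The share of the library taken by Gm42418 in the mutant was 1.823 times that in WT and 1.814 to 1.815 times with other denominators.

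The number of genes meeting the criterion was 42 between mutant and WT, 221 between mutant and Isl1Cre/+ and 185 between Isl1Cre/+ and WT. It was 408, 1028 and 845 without a filter on low counts, 139 and 104 in the latter pair with 100 counts in every library, and 7, 138 and 105 with a fold change of at least 1.5. Without a fold requirement it was 360 between mutant and Isl1Cre/+, and with the covariate 85 between mutant and WT. With a library left out it ranged from 40 to 132, 167 to 407 and 102 to 340. The extremes were without WT replicate 1 (132 and 340), mutant replicate 1 (407) and Isl1Cre/+ replicate 3 (102). Of the list counts and window shares under these alternatives, 688 stayed within 1.5 times (a count of 0 taken as 1) or the counting interval and 73 did not.

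In their deviations from the group means, same-numbered libraries correlated by -0.60 to 0.39 and different-numbered libraries by -0.57 to 0.55. These ranges are alike, so they cannot tell whether the replicate numbers pair the libraries. With the replicate block, the log2 fold changes of Gm42418 were 0.91 ± 0.25, 0.64 ± 0.10 and 0.28 ± 0.21 (SE). Those of n-R5-8s1 were 0.52 ± 0.63, 2.06 ± 0.30 and -1.50 ± 0.44, against standard errors of 0.86, 0.74 and 0.92 without the block. In these fits, 31, 177 and 236 genes met the criterion. Windows were compared with annotated transcripts only, and occurrence in the genome was not analysed here. At this depth, counts of under 40 as for CT010467.1 leave wide counting intervals, while for Gm42418 the spread between libraries limits the precision.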
